A study of Arabidopsis thaliana with 12 samples.

Results

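The genes described here encode the core and linker histones of Arabidopsis thaliana, followed through root tip regeneration by ATAC-seq, an assay that marks accessible DNA by letting the transposase Tn5 cut it and attach adapters for sequencing. Members were the genes whose description in the authors' tables names a histone superfamily protein, histone H1, H2A, H2B, H3 or H4, or a linker histone, leaving out descriptions that hold methyltransferase, acetyl, kinase or chaperone. Histone genes described in other words, among them HTB2 (described as histone B2) and HTR11 (histone 3 11), were not taken in, so class sizes are those of the rule and not of the family. The rule found 48 genes of the 29810 named in those tables. By locus, 43 of them fell into histone classes: 1 linker H1 gene, 4 canonical H2A genes, 1 H2A.X gene, 3 H2A.W genes, 3 H2A.Z genes, 10 H2B genes, 5 H3.1 genes, 3 H3.3 genes, 5 other H3 genes and 8 H4 genes. For 16 of these the deposited description and the reference gene table give no class, and their class rests on a list of loci written for this work. The other 5 were AT3G07565, described as an H2A deubiquitinase, AT3G25590, described as a micronuclear linker histone polyprotein, AT5G19490, AT5G50930 (MHF1) and LEC1 (NF-YB9, a subunit of the transcription factor NF-Y). LEC1 and MHF1 are not histones, so the label does not hold for every gene found. Counts over all the genes found include these unplaced genes, and the main counts are also given without them.

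Nucleosomes wrap DNA around a core of paired H2A, H2B, H3 and H4, and linker H1 binds where the DNA enters and leaves that core. Genes for the canonical histones and for H3.1 are transcribed mainly during DNA replication, when new chromatin has to be packed. H3.3, H2A.X, H2A.W and H2A.Z are variants: H3.3 replaces nucleosomes outside replication, H2A.X is phosphorylated at DNA breaks, H2A.W lies in heterochromatin and H2A.Z around gene starts. Cells of a root that regrows its tip return to division, which makes these genes of interest in this tissue.

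All plants were taken at 7 DAS, and each of the 4 groups held 3 libraries. Uncut roots were Col-0, sorted after DAPI staining, with 50000 nuclei in each library. The groups at 2.5 h, 14 h and 16 h after tip excision came from the MP::MP-GFP line, in which a GFP fusion of MONOPTEROS (MP), an auxin response factor of the root vasculature, is driven by the MP promoter; cells were sorted for GFP and 1000 nuclei were profiled per library, or 2000 in 16 h replicate 3. Excision, plant line, sort and number of nuclei changed together against uncut roots, and their parts cannot be told apart; the times after excision differ in none of these except for that replicate. The labels do not say that replicates were separate batches of plants, so p-values measure the spread between these libraries, which may be technical.

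Reads in accessible regions numbered 22.5 to 31.8 M in uncut libraries, 1.83 to 4.78 M at 2.5 h, 10.7 to 17.3 M at 14 h and 1.44 to 2.35 M at 16 h. Levels are given as CPM, counts relative to the library's total, on a common TMM scale, so that 3 counts, the limit that a count of 0 allows, were worth 0.116 to 0.158 CPM in uncut libraries and 0.782 to 2.12 at 2.5 h, 0.236 to 0.388 at 14 h and 1.54 to 2.43 at 16 h. These limits cover counting error only. The list of 6 stele markers summed to 332 to 364 CPM in uncut libraries and to 386 to 601 at 2.5 h, 500 to 558 at 14 h and 474 to 595 at 16 h. MP itself, whose transgene adds copies of its sequence, stood at 105 ± 3.56 CPM in uncut roots (SD, n = 3) and at 291 ± 8.74 at 14 h. Of the 6 stele markers, only MP passed the test described below, at 14 h and 16 h. The median log2 fold change of the 6 against uncut roots was -0.43 at 2.5 h, 0.04 at 14 h and 0.10 at 16 h. The sums therefore do not show a rise shared by the list. The 4 epidermis markers summed to 267 to 282 CPM in uncut libraries and to between 148 and 252 in all 9 later libraries, and the 3 endodermis markers to 175 to 202 and to between 98.0 and 198. The 2 root cap markers summed to 55.8 to 59.6 CPM in uncut libraries and to 32.4 to 94.2 at 2.5 h, 73.7 to 90.6 at 14 h and 66.5 to 71.3 at 16 h, and the 3 leaf markers to 145 to 150, 167 to 192, 87.7 to 130 and 119 to 152. In such bulk libraries a different share of a cell type and a different level within cells cannot be told apart. No marker was at 0 in all libraries, and whether the different mixture of cells has a part in the histone values was not tested.

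The authors assigned 183 regions to the 48 genes: 79 at promoters, 44 at transcription ends (TTS), 41 in exons, 13 intergenic and 6 in introns. Of these, 116 had identical coordinates in all 12 libraries (99054 regions in the whole series did), and 46 genes had at least 1 of them; HTB11, an H2B gene, and AT5G19490 had none. Many of these regions lie within neighbouring genes, since a region was assigned to the nearest transcription start, and 77 of the 116 lay within 1 kb of the start. In uncut roots the level per kb of region ranged between 43.5 CPM for AT3G25590 and 85.3 for HTB4 over the 46 genes. Class medians lay close together, from 49.96 CPM per kb for the lone H2A.X gene and 51.6 for the lone H1 gene through 54.1 for H2B, 55.6 for other H3, 56.6 for canonical H2A, 58.9 for H3.1, 60.1 for H2A.W, 66.6 for H4 and 68.1 for H2A.Z to 73.7 for H3.3. The ranges of the classes overlapped, from 44.5 to 76.5 in H4 and from 66.4 to 73.8 in H3.3. All levels below are CPM per gene, compared between groups and not between genes.

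After excision, more of these genes stood above than below their level in uncut roots, and few of them passed the test. Genes were tested with edgeR's quasi-likelihood F test across all genes, with Benjamini-Hochberg adjustment and an adjusted p under 0.05 as the threshold. At 14 h, 5 of the 46 measured genes rose against uncut roots and 1 fell, where 2.98% of all genes rose and 7.31% fell. At 16 h, 1 rose and 2 fell, where 2.75% of all genes rose and 6.16% fell. At 2.5 h none passed in either direction, where 0.00355% of all genes rose and 0.227% fell; at an unadjusted p under 0.05 there were 3, all higher, where 4.06% of all genes were higher and 5.91% lower. DESeq2 called 3 higher and 0 lower at 2.5 h, where it called 3.62% of all genes higher and 4.53% lower. The genes called by edgeR at 14 h and 16 h belong to the 42 measured genes placed in a class. The median log2 fold change of the 46 genes was 0.19 at 2.5 h, 0.30 at 14 h and 0.21 at 16 h, beside -0.03, 0.05 and 0.03 for all genes tested, and 30, 34 and 33 of the 46 had a positive value, or 65.2%, 73.9% and 71.7%, against 48.2%, 54.3% and 52.5% of all genes. Over the 42 placed genes the medians were 0.19, 0.30 and 0.25, with 28, 32 and 30 positive values. These 3 comparisons share the uncut libraries.

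Genes whose libraries separated fully were counted as well. All 3 libraries at 14 h lay above all 3 uncut libraries for 17 of the 46 genes, or 37.0%, against 17.1% of all genes, and below them for 3, or 6.52%, against 19.2%. At 16 h the counts were 10 above (21.7%, against 14.3% of all genes) and 7 below (15.2%, against 17.7%). At 2.5 h they were 6 above and 6 below, where 8.02% and 16.3% of all genes did so. Of the 42 placed genes, 15 lay above and 2 below at 14 h. For 16 h these were 9 and 6, for 2.5 h 5 and 6. The 17 genes at 14 h were HIS1-3, RAT5, HTA10, HTA13, H2AXA, HTA9, HTB9, AT2G28720, AT3G09480, AT3G53650, AT5G02570, AT1G75600, AT5G12910, AT3G46320, AT3G53730 and the unplaced AT3G25590 and AT5G50930. No H3.1, H3.3 or H2A.W gene was among them.

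**Figure D1:**
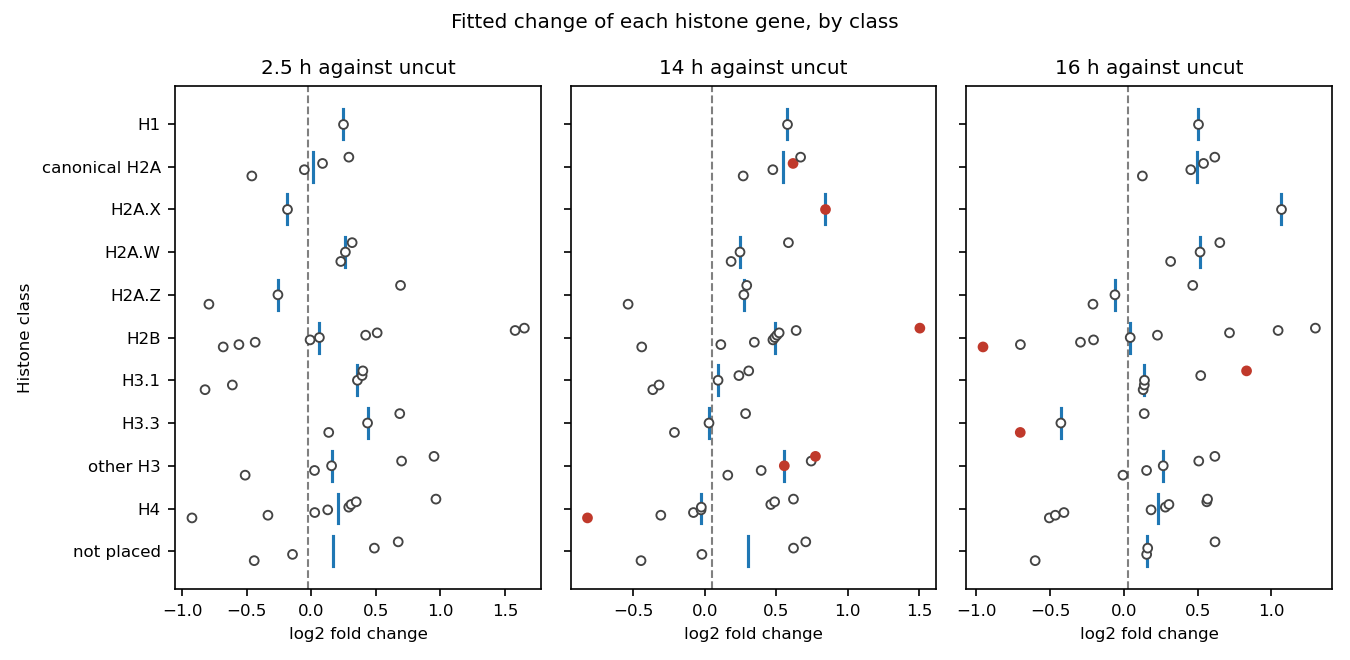
Fitted log2 fold change of each histone gene (x axis) by class (y axis) at 2.5 h, 14 h and 16 h against uncut roots, 3 libraries a group. Filled red points passed the test, open points did not, blue bars are class medians and the dashed line is the median of all genes tested; at 14 h the medians of H2A, H2B and other H3 lie right of the dashed line and that of H4 at -0.03 lies left of it.

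HIS1-3, the H1 variant known to be induced by drought, was the linker histone gene that the rule found, and it had counts in all 12 libraries. It stood at 23.0, 24.6 and 22.8 CPM in the uncut libraries and 33.4, 36.3 and 13.4 at 2.5 h. Later, 38.0, 30.7 and 36.3 CPM were read at 14 h and 33.6, 34.9 and 30.8 CPM at 16 h. Every library at 14 h and 16 h lay above every uncut library, while the values at 2.5 h fell on both sides. The log2 fold change was 0.58 ± 0.16 (SE, n = 3) at 14 h with an edgeR adjusted p of 0.0517, and 0.50 ± 0.17 at 16 h with an adjusted p of 0.0972, so neither passed.

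Of the 4 canonical H2A genes, RAT5 rose at 14 h and none passed at 16 h. RAT5 (HTA1), whose loss makes roots resist transformation by Agrobacterium, held 39.6, 39.0 and 38.8 CPM in the uncut libraries and 67.1, 55.2 and 57.9 at 14 h, with 57.4, 34.1 and 32.4 at 2.5 h and 59.7, 52.3 and 48.6 at 16 h. Its late libraries all lay above the uncut ones, which had the smallest spread of any histone gene in uncut roots. The log2 fold change was 0.62 ± 0.13 at 14 h (edgeR adjusted p = 0.0203) and 0.45 ± 0.15 at 16 h (adjusted p = 0.0878). Of its 5 regions 2 lie within 1 kb of the start, and with these alone the log2 fold change at 14 h was 0.16, with an adjusted p of 0.683.

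The other 3 canonical genes did not pass. HTA13 averaged 19.9 ± 0.584 CPM in uncut roots (SD, n = 3), 27.8 ± 6.11 at 14 h and 30.9 ± 7.40 at 16 h, with log2 fold changes of 0.48 ± 0.20 (SE; edgeR adjusted p = 0.167) and 0.62 ± 0.21 (0.0980). Its lowest library at either late time, 21.4 CPM, was above the highest uncut library, 20.6. HTA10 and HTA2 had values of 0.67 and 0.27 at 14 h and of 0.13 and 0.54 at 16 h, so that all 4 genes had a positive fold change at both times, with medians of 0.55 and 0.50. The 16 h libraries of HTA10 held 4.80, 16.4 and 4.05 CPM, of which 2 lay below its uncut range of 7.91 to 8.80. Summed over the class, levels were 80.6 to 84.1 CPM in uncut libraries and 63.0 to 110 at 2.5 h. The sums were 108 to 136 at 14 h and 101 to 125 at 16 h, without overlap with the uncut ones. Of the class means of 82.8 CPM in uncut roots and 120 at 14 h, RAT5 alone made up 39.1 and 60.1. These sums were not compared with sums over other genes.

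H2AXA, which encodes the H2A.X variant phosphorylated at DNA double-strand breaks, was higher at 14 h. It stood at 17.9, 16.7 and 15.5 CPM in uncut libraries and 19.0, 4.75 and 20.4 at 2.5 h. At 14 h it had 38.8, 23.8 and 27.5 CPM, then 9.60, 56.4 and 36.4 at 16 h. The 14 h libraries all lay above the uncut ones, whereas those at 16 h spanned them, with replicate 1 below and the other two above. The fitted change on the log2 scale was 0.84 ± 0.22 at 14 h (edgeR adjusted p = 0.0427) and 1.06 ± 0.41 at 16 h (adjusted p = 0.127). The gene was read in 2 regions, both within 1 kb of the start; that on chromosome 1 from 2847776 to 2847911 (TAIR10), is annotated as the promoter of the neighbouring AT1G08890. Tested on its own, it went from 4.79, 6.49 and 5.48 CPM in uncut libraries to 22.1, 10.6 and 17.6 at 14 h. Its log2 fold change was 1.59 ± 0.32 with an edgeR adjusted p of 0.0291. The authors' deposited log2 fold change at 14 h was 1.24 for it and -0.11 for the other region, from 2847469 to 2847667. The higher level of the gene thus rests mainly on the region at the neighbouring promoter.

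No H2A.W gene passed. HTA12 had log2 fold changes of 0.59 ± 0.40 at 14 h and 0.65 ± 0.31 at 16 h (edgeR adjusted p = 0.373 and 0.205), from 7.95 ± 0.959 CPM in uncut roots. HTA7 had 0.25 and 0.32, from 28.9 ± 1.72 CPM, and HTA6, at 5.81 ± 1.67 CPM, had no read in 2.5 h replicate 2. Nor did any of the 3 H2A.Z genes. HTA11 had negative values at 2.5 h (-0.79 ± 0.46, adjusted p = 0.673), 14 h (-0.54 ± 0.27, 0.231) and 16 h (-0.21 ± 0.21, 0.555), with all 3 libraries at 2.5 h below the uncut range of 23.1 to 27.1 CPM. HTA8 had positive values at all 3 times (0.69, 0.27 and 0.47), and HTA9 stood at 42.7 to 46.4 CPM in uncut libraries and 47.2 to 64.2 at 14 h, a log2 fold change of 0.29 ± 0.15 with an adjusted p of 0.235.

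The calls among H2B genes differed in direction between 14 h and 16 h, and no H2B gene passed between the times. Of the 9 measured, 1 rose at 14 h and 1 fell at 16 h, and the class median was 0.06 at 2.5 h, 0.49 at 14 h and 0.04 at 16 h. At 14 h, 8 of the 9 had a positive log2 fold change, and AT1G08170, at -0.44, did not.

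HTB9 was read in a single promoter region of 72 bp, 154 bp upstream of its start. It held 2.78, 3.82 and 4.22 CPM in uncut libraries and 15.1, 6.30 and 9.30 at 14 h, and stood at 0, 3.88 and 11.99 at 2.5 h and 2.06, 0 and 5.67 at 16 h. The 14 h libraries lay above the uncut ones and above those at 16 h. At 14 h the log2 fold change was 1.51 ± 0.40 (edgeR adjusted p = 0.0470), and it did not pass at 16 h. AT3G09480, with the next smallest p of the class at 14 h, held 15.1, 18.1 and 22.2 CPM in uncut libraries and 40.6, 23.4 and 22.5 at 14 h (0.64 ± 0.27, adjusted p = 0.164).

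HTB4, also read in a single promoter region, 23 bp upstream of its start, fell at 16 h. It stood at 22.6, 27.9 and 28.8 CPM in uncut libraries and 7.56, 27.2 and 49.4 at 2.5 h. The 14 h libraries held 37.7, 14.7 and 33.0 CPM, those of 16 h 17.1, 11.8 and 12.1. The 16 h libraries were all below the uncut ones, and the other times spread to either side. At 16 h the log2 fold change was -0.95 ± 0.24 (edgeR adjusted p = 0.0352), and directly against 14 h it was -1.06 ± 0.42 with an adjusted p of 1.00. AT3G53650 had 1.30 ± 0.43 at 16 h (adjusted p = 0.0882), from 6.56, 7.30 and 6.59 CPM in uncut libraries to 20.6, 5.64 and 26.7, so that 1 of the 3 libraries lay below the uncut range.

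HTB1 had the smallest p of any histone gene at 2.5 h. Its single region, 481 bp downstream of the start and annotated as the promoter of AT1G07780, held 11.1, 9.50 and 10.4 CPM in uncut libraries and 28.4, 26.3 and 38.1 at 2.5 h, a log2 fold change of 1.58 ± 0.36. All 3 libraries at 2.5 h stood above the uncut ones, but the edgeR adjusted p over all genes was 0.141. At 14 h and 16 h the values were 20.0, 7.31 and 12.1 and 29.5, 11.3 and 10.5 CPM, overlapping the uncut range. In the authors' deposited table for 2.5 h, which holds only regions under their threshold, this region had a log2 fold change of 1.24 with an adjusted p of 0.0122.

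**Figure D2:**
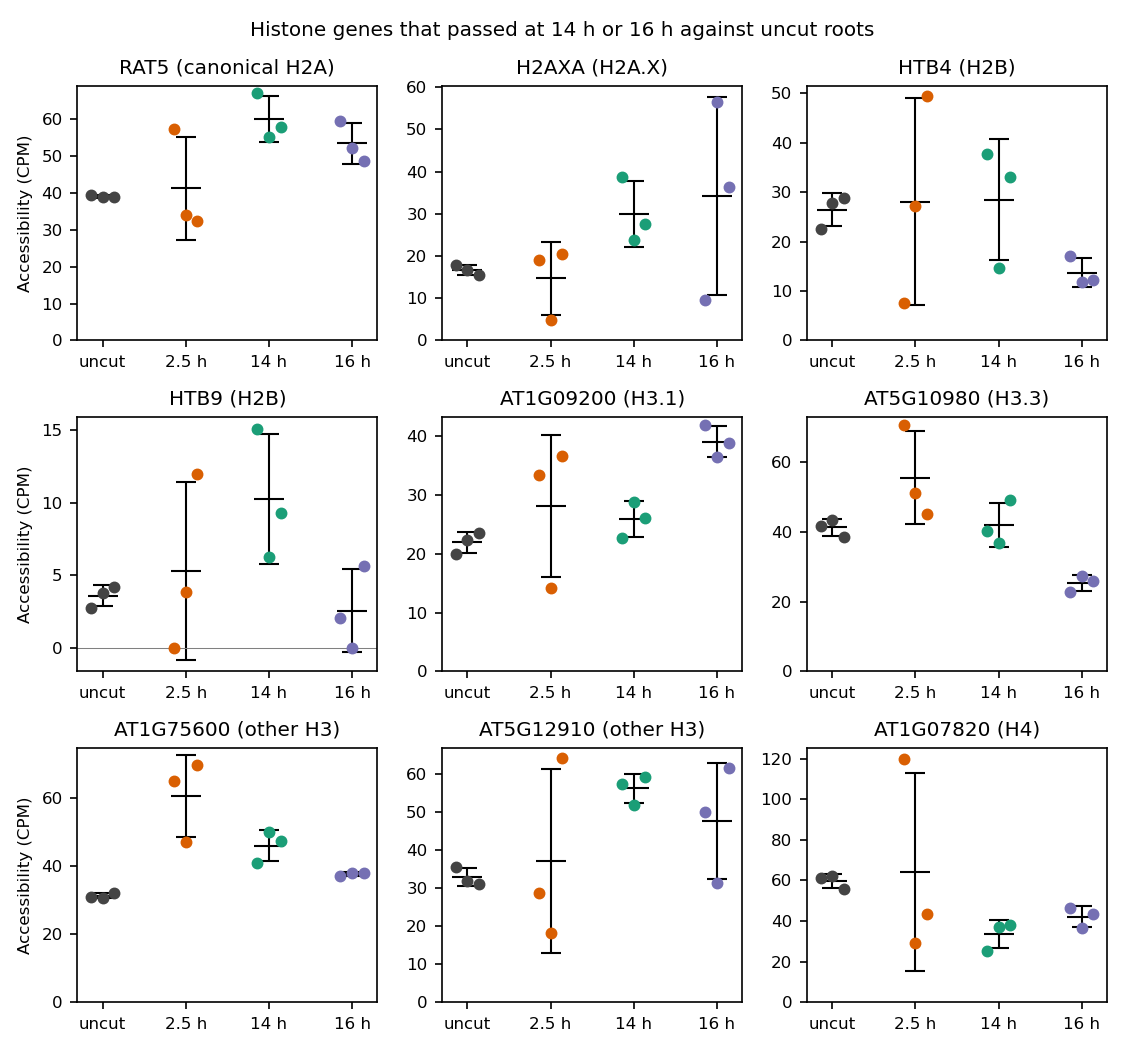
Accessibility in CPM (y axis, linear, TMM scale) of the 9 histone genes that passed at 14 h or 16 h, in uncut roots and 2.5 h, 14 h and 16 h after excision (x axis). Points are the 3 libraries of each group, horizontal bars the mean and whiskers the SD; the libraries of AT1G07820 at 2.5 h run from 29.4 to 120 CPM and those of H2AXA at 16 h from 9.60 to 56.4.

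At 16 h, where 2.75% of all genes rose and 6.16% fell, 1 gene of the replication-linked H3.1 rose and 1 of the replacement variant H3.3 fell. All 5 H3.1 genes had a positive log2 fold change there, of 0.13 to 0.83, and 1 rose; of the 3 H3.3 genes, 1 fell and the values were -0.70, -0.43 and 0.14. The difference between the classes was not tested. Summed over each class, H3.1 genes stood at 111 to 115 CPM in uncut libraries and 127 to 175 at 16 h, and H3.3 genes at 79.9 to 93.7 and 54.2 to 72.3, without overlap in either class. Of the H3.1 means of 114 CPM in uncut roots and 145 at 16 h, AT1G09200 alone made up 21.9 and 39.0. Of the H3.3 means of 84.9 and 64.6 CPM, AT5G10980 alone made up 41.2 and 25.2. Such sums were not compared with those of other genes. At 14 h the sums overlapped the uncut ones in both classes, with 108 to 120 CPM for H3.1 and 82.3 to 92.6 for H3.3.

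AT1G09200, an H3.1 gene, held 20.0, 22.2 and 23.4 CPM in uncut libraries and 33.4, 14.2 and 36.7 at 2.5 h. Later, 22.6, 28.7 and 26.1 CPM were read at 14 h and 41.8, 36.4 and 38.9 CPM at 16 h. All libraries of 16 h were above all uncut and all 14 h libraries. The log2 fold change at 16 h against uncut roots was 0.83 ± 0.17 (edgeR adjusted p = 0.0167), and against 14 h it was 0.59 ± 0.32 with an adjusted p of 1.00. AT5G65360 had 0.52 ± 0.19 (adjusted p = 0.121), with 24.0, 30.8 and 33.2 CPM at 16 h above an uncut range of 19.7 to 20.9. AT5G10390 and AT5G10400 had -0.36 and -0.32 at 14 h, with adjusted p of 0.226 and 0.352, and AT3G27360 had 0.09 at 14 h and 0.13 at 16 h.

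AT5G10980, an H3.3 gene, was lower at 16 h. Its levels were 41.7, 43.4 and 38.5 CPM in uncut libraries and 70.4, 50.9 and 45.1 at 2.5 h. At 14 h it had 40.2, 36.7 and 49.0 CPM, then 22.6, 27.2 and 25.9 at 16 h. The 16 h libraries lay below those of every other group, and those at 2.5 h above the uncut ones. The log2 fold change was -0.70 ± 0.17 at 16 h (edgeR adjusted p = 0.0316) and 0.44 ± 0.24 at 2.5 h (adjusted p = 0.647). Against 2.5 h directly the 16 h value was -1.14 ± 0.41, with an unadjusted p of 0.0183 and an adjusted p of 1.00. In the authors' deposited table for 2.5 h, a region of this gene from 3473393 to 3473441 had a log2 fold change of 4.39 and an adjusted p of 1.8e-05. It is not among the regions shared by all libraries. That table holds 8 histone regions, 5 higher and 3 lower, beside 3287 and 9020 over all its regions.

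Promoter regions of 2 of the 3 H3.3 genes fell at 16 h when regions were tested singly. That test called 3 of the 116 histone regions lower, and 6.8% of all regions. The AT4G40040 promoter region on chromosome 4 from 18558854 to 18559108 (TAIR10), 36 bp upstream of the start, went from 13.6, 21.7 and 16.4 CPM in uncut libraries to 3.43, 3.08 and 7.29 at 16 h, a log2 fold change of -1.98 ± 0.40 with an edgeR adjusted p of 0.0107. The AT5G10980 promoter region on chromosome 5 from 3473725 to 3473892, 238 bp upstream, went from 13.1, 15.1 and 13.4 to 4.11, 3.59 and 7.29, a log2 fold change of -1.53 ± 0.35 with an adjusted p of 0.0195. Both regions stood lower in every library of 16 h than in every uncut library, and at 14 h neither passed, with values of -0.19 for each. AT4G40040 as a whole gene did not pass at 16 h (-0.43 ± 0.24, adjusted p = 0.283), and its other region, 705 bp downstream and annotated as the promoter of AT4G40030, had a value of 1.01. AT4G40030, the third H3.3 gene, had 0.68, -0.21 and 0.14 at 2.5 h, 14 h and 16 h.

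The smallest edgeR adjusted p of the set was that of 1 gene of the other H3 class, AT5G12910, at 14 h. AT5G12910, which the files describe only as a histone superfamily protein, held 35.6, 31.7 and 31.1 CPM in uncut libraries and 28.7, 18.1 and 64.2 at 2.5 h. The 14 h libraries held 57.4, 51.9 and 59.1 CPM, those of 16 h 50.1, 31.3 and 61.5. All 14 h libraries stood above all uncut ones, with the smallest relative spread of any histone gene at that time, and 16 h replicate 2 fell back into the uncut range. At 14 h the log2 fold change was 0.77 ± 0.14 (edgeR adjusted p = 0.00845), and at 16 h it was 0.51 ± 0.22 (adjusted p = 0.176). Of its 4 regions, 1 lies within 1 kb of the start and 2 in exons of the neighbouring AT5G12920; with the near region alone the value at 14 h was 0.59, with an adjusted p of 0.285.

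AT1G75600 was higher at all times in every library. It held 31.0, 30.8 and 32.2 CPM in uncut libraries and 64.9, 47.0 and 69.8 at 2.5 h. Later, 41.0, 49.9 and 47.3 CPM were read at 14 h and 37.0, 38.0 and 38.1 CPM at 16 h. No later library overlapped the uncut ones, and the means fell from 60.6 ± 11.98 CPM at 2.5 h (SD, n = 3) through 46.1 ± 4.59 at 14 h to 37.7 ± 0.570 at 16 h, although no comparison between times passed. The log2 fold changes were 0.95 ± 0.23 at 2.5 h (SE; edgeR adjusted p = 0.178), 0.56 ± 0.14 at 14 h (0.0391) and 0.27 at 16 h, of which that at 14 h passed. In the authors' deposited table for 2.5 h, the region in exon 2 of this gene had a log2 fold change of 1.33 and an adjusted p of 0.0334.

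The centromeric histone gene HTR12 (CENH3) did not pass: it held 16.1 to 17.4 CPM in uncut libraries, 33.6, 16.1 and 34.4 at 14 h and 30.2, 21.0 and 26.7 at 16 h, with log2 fold changes of 0.74 ± 0.28 (edgeR adjusted p = 0.125) and 0.62 ± 0.21 (0.0972). AT1G13370 had 0.70 at 2.5 h with an adjusted p of 0.528. MGH3, the H3 gene of male gametes, stood at 21.9 ± 0.984 CPM in uncut roots and 24.3 ± 9.34 at 14 h.

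H4 genes differed among themselves, and AT1G07820 was the histone gene that fell at 14 h. It stood at 61.0, 62.0 and 55.6 CPM in uncut libraries and 120, 29.4 and 43.7 at 2.5 h. At 14 h it had 25.5, 37.2 and 38.2 CPM, then 46.6, 36.4 and 43.7 at 16 h. All 6 late libraries lay below the uncut ones, and those at 2.5 h spanned them. The log2 fold change was -0.82 ± 0.17 at 14 h (edgeR adjusted p = 0.0202) and -0.51 ± 0.16 at 16 h (adjusted p = 0.0739). Of its 4 shared regions 1 lies within 1 kb of the start. On its own count it had -1.06 at 14 h, with an edgeR adjusted p of 0.0920. In 2 promoter regions found at 14 h alone, means of recovered reads went from 0.397 and 1.58 CPM in uncut roots to 6.55 and 6.06 at 14 h. Choosing regions found at 14 h alone favours higher values there. With recovered reads over all regions of the 14 h set, the log2 fold change of the gene was -0.55.

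AT1G07660, another H4 gene, had -0.46 ± 0.15 at 16 h (edgeR adjusted p = 0.0796), with 59.0, 47.7 and 47.8 CPM below an uncut range of 69.8 to 73.0. The region on chromosome 1 from 2369264 to 2369512, assigned to this gene and annotated as the promoter of AT1G07645, fell at 14 h on its own, from 24.2, 23.8 and 21.0 to 10.6, 8.19 and 12.8 CPM (-1.12 ± 0.23, adjusted p = 0.0276). AT3G53730 went the other way, with 27.7, 24.3 and 27.2 CPM in uncut libraries and 37.1, 29.7 and 54.5 at 14 h (0.62 ± 0.22, adjusted p = 0.111). Over the 8 genes the class median was -0.03 at 14 h and 0.23 at 16 h, and the class sum was 314 to 319 CPM in uncut libraries, 267 to 345 at 14 h and 274 to 346 at 16 h, overlapping at both times. Sequences of H4 genes are close to one another, as are those of H3.1, H2A and H2B genes, and reads from such copies could be split between them, since the sources used here do not give how reads that match several places were treated.

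**Figure D3:**
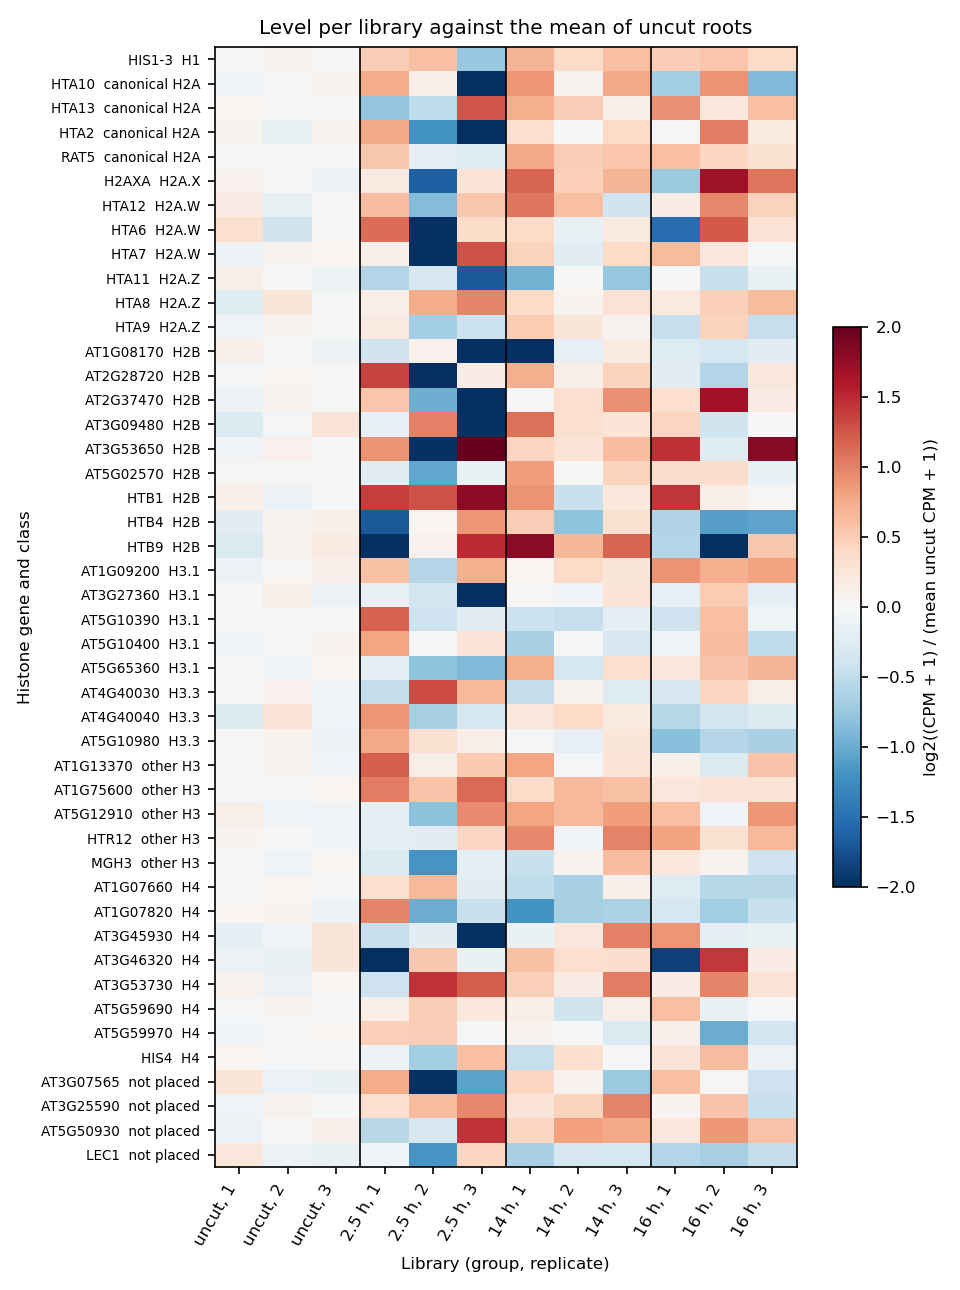
Level of each of the 46 measured genes (rows, with class) in each of the 12 libraries (columns), as log2 of CPM + 1 over the mean uncut CPM + 1, with the colour range ending at -2 and 2. The uncut columns are pale (median coefficient of variation 6.30%), the 2.5 h columns mix deep red and blue within one gene (55.8%), and the 14 h columns hold more red than blue.

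Replicates spread most at 2.5 h. Over the 46 genes the median coefficient of variation was 6.30% in uncut roots, 55.8% at 2.5 h, 22.2% at 14 h and 29.6% at 16 h, beside 6.72%, 53.8%, 23.1% and 27.9% for all genes. At 2.5 h, 2, 4 and 6 of the 46 genes were at 0 in replicates 1, 2 and 3. The libraries of 16 h, with fewer reads, had a smaller spread than those of 2.5 h. Between the times after excision no histone gene passed in any of the 3 comparisons. Among all genes, 0% rose and 0% fell at 14 h against 2.5 h and at 16 h against 2.5 h, and 0.00718% rose and 0% fell at 16 h against 14 h. The smallest p in edgeR's test at 14 h against 2.5 h were those of HTB1 (-1.23 ± 0.58), AT1G07660 (-0.62 ± 0.34) and AT1G07820 (-0.95 ± 0.52), and at 16 h against 14 h those of HTB4, HTB9 (-2.11 ± 0.85) and AT5G10980 (-0.73 ± 0.32). The unadjusted p was under 0.05 for 0 of 46 genes at 14 h against 2.5 h, for 2 of 45 at 16 h against 2.5 h and for 3 of 46 at 16 h against 14 h, where 5.21%, 3.73% and 4.37% of all genes had such a p.

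Regions tested singly added a few more places. Among the 116 regions, edgeR called 2 higher and 3 lower at 2.5 h, 2 higher and 1 lower at 14 h, and 1 higher and 3 lower at 16 h. The same test over all regions called 0.183% higher and 7.73% lower at 2.5 h. For 14 h the shares were 0.688% and 5.53%, for 16 h 2.09% and 6.80%. The 3 lower regions at 2.5 h had no read in any 2.5 h library: a promoter region of RAT5 at 4.58 to 5.48 CPM in uncut libraries, a region in exon 6 of HTR12 at 3.71 to 3.95, and a TTS region of AT3G45930 at 3.13 to 5.27. Of all regions, 27.4% to 37.3% had no read in a given 2.5 h library, and 15.5% to 31.0% of the histone regions. The 2 higher regions at 2.5 h were that of HTB1 and a TTS region of AT5G59690, an H4 gene, at 8.88 to 10.4 CPM in uncut and 21.1 to 34.5 in 2.5 h libraries (1.51 ± 0.33, adjusted p = 0.0478). At 14 h the second higher region lay in exon 11 of AT3G46330 beside the H4 gene AT3G46320, and at 16 h the region called higher was a promoter region of AT1G09200, 614 bp upstream of its start, at 3.55 to 4.87 CPM in uncut and 8.10 to 21.9 in 16 h libraries (1.59 ± 0.40, adjusted p = 0.0320).

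**Figure D4:**
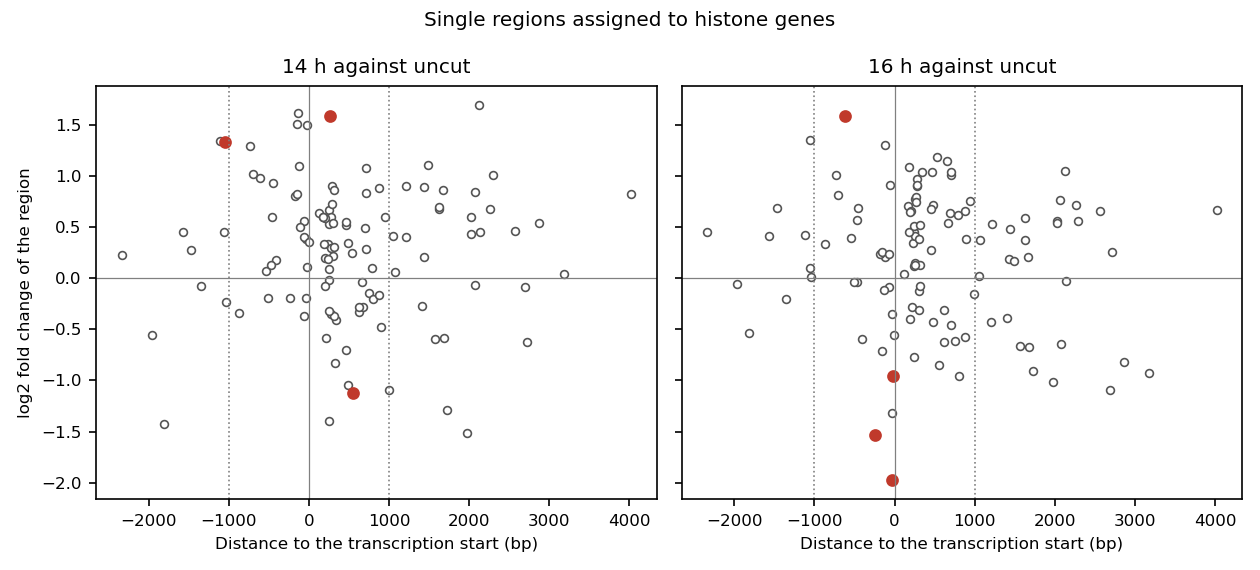
Log2 fold change against uncut roots (y axis) of each of the 116 regions assigned to histone genes, by distance to the transcription start in bp (x axis, negative upstream, dotted lines at 1 kb), at 14 h and 16 h. Filled red points passed the test on single regions; at 16 h the 3 lower ones lie within 1 kb upstream of a start, at -0.95, -1.53 and -1.98.

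The 14 h set was larger than the others and held 61 histone regions, in 33 genes, that were in neither the uncut nor the 2.5 h set. Levels of these in uncut roots were recovered from the authors' normalized signal. In 50 of the 61 (82.0%) all 14 h libraries lay above all uncut ones, as did 83.4% of all 35145 such regions. The median ratio was 5.83 against 4.59. Sets were compared by exact coordinates, so some of these regions were also open in uncut roots. An HTA7 region averaged 12.1 CPM in uncut roots and 12.9 at 14 h. Choosing regions found at 14 h alone favours higher values there, so these shares are a description. In the authors' deposited table for 14 h, 50 of the 180 histone regions were higher and 14 lower at their adjusted p under 0.05, or 27.8% and 7.78%, against 19.9% and 14.5% of all regions; both sets include regions found at 14 h alone.

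Partners of the histones were read from lists of loci. Of 15 histone chaperone genes, among them the CAF-1 subunit FAS1 that hands H3.1 to replicating DNA and HIRA that deposits H3.3, 12 were measured and none passed in any comparison; their median log2 fold change was -0.41 at 2.5 h, 0.07 at 14 h and -0.07 at 16 h. Of 20 DNA replication genes such as PCNA1, the MCM helicase subunits and the regulator E2FA, 17 were measured and none passed, with medians of 0.11, -0.17 and -0.13. The 26 replication-coupled H2A, H2B, H3.1 and H4 genes had medians of 0.11, 0.33 and 0.21 at the same times, and the 16 variant genes 0.24, 0.29 and 0.29. Of the replication-coupled genes 2 rose and 1 fell at 14 h and 1 rose and 1 fell at 16 h. Of the variants 3 rose at 14 h and 1 fell at 16 h. Among all genes 2.98% rose and 7.31% fell at 14 h, and 2.75% and 6.16% at 16 h. At such shares lists this short would hold few calls or none, and differences between the lists were not tested. Of the genes not placed in a class none passed: MHF1 had 0.71 ± 0.19 at 14 h (edgeR adjusted p = 0.0513), AT3G25590 had 0.62 ± 0.20 (0.0845), and LEC1 had -0.45 ± 0.16 at 14 h (0.116) and -0.60 ± 0.18 at 16 h (0.0624), with all 6 late libraries below the uncut ones.

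The calls at 14 h and 16 h were not stable. With a common estimate of the spread from all 12 libraries none of the 46 genes passed at either time in edgeR. That fit called 0.0178% of all genes higher and 1.63% lower at 14 h, and 0.0249% and 0.77% at 16 h. Leaving out uncut replicate 1, 2 or 3 left 1, 0 and 0 higher at 14 h, 0 lower at 14 h, and none at 16 h. Those fits called 0.071%, 0.0959% and 0.188% of all genes higher at 14 h and 2.97%, 3.28% and 3.71% lower. At 16 h they called 0.0721%, 0.0829% and 0.108% higher and 2.05%, 2.26% and 2.53% lower. Calls over all genes thus fell as well. The highest adjusted p without an uncut library was 0.127 for RAT5, 0.183 for H2AXA, 0.234 for HTB9, 0.211 for AT1G75600, 0.0732 for AT5G12910 and 0.119 for AT1G07820 at 14 h, and 0.144 for AT1G09200, 0.222 for AT5G10980 and 0.215 for HTB4 at 16 h. HTB9 also missed the threshold without 14 h replicate 3 (0.0556), and HTB4 without 16 h replicate 2 (0.0551) or replicate 3 (0.0527). Leaving out 14 h replicate 1, 2 or 3 gave 8, 10 and 5 higher and 1, 2 and 2 lower at 14 h, leaving out 16 h replicate 1, 2 or 3 gave 3, 5 and 3 higher and 4, 1 and 1 lower at 16 h, and leaving out 2.5 h replicate 1, 2 or 3 gave 2, 2 and 1 higher at 2.5 h. Over all such fits, edgeR called 0.071% to 8.25% of all genes higher at 14 h and 2.97% to 11.5% lower, 0.0721% to 6.05% higher and 2.05% to 9.73% lower at 16 h, and up to 1.57% higher and 5.20% lower at 2.5 h. The signs of all 9 fold changes were the same in each of these fits. With regions within 1 kb of a start alone, none passed at 14 h, where 1.1% of all genes were higher and 4.02% lower. The counts at 16 h were 1 and 2 as before, where 2.3% and 4.66% of all genes were called. With library totals in place of TMM, 8 rose and 1 fell at 14 h and 2 rose and 1 fell at 16 h; over all genes that scaling called 6.35% higher and 6.03% lower at 14 h, against 2.98% and 7.31%, and 4.69% and 5.16% at 16 h, against 2.75% and 6.16%. With it the all-gene median at 14 h went from 0.05 to 0.15 on the log2 scale, and changes here are relative to TMM.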

How the data were processed

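ATAC-seq libraries were prepared per the labels' protocols from sorted protoplasts, with Tn5 and PCR cycles set by qPCR. The deposited count files give whole read counts per region, 1 file per library. The authors' tables hold a normalized signal per library, with a p-value, a log2 fold change and the HOMER annotation of each region, per the file headers. The submitters' processing notes name Bowtie2, SAMtools, MACS2, DESeq2, HOMER and TAIR10, with no role given here. Their versions, and how duplicates and multiple matches were handled, were not given in the sources used here. Multiplying the deposited signal by 1 factor per library gave back whole reads (100% of values at a tolerance of 0.01). The table for 16 h was not used, nor were 12 columns of per-library values.

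Counts of regions with identical coordinates in all 12 libraries were summed per gene over the nearest start given by the authors (28166 genes). Each of 6 pairwise comparisons used its 6 libraries, TMM factors from all 12, filterByExpr and edgeR 4.0.16 (R 4.3.3), with Benjamini-Hochberg adjustment over all genes; the standard error is the log2 fold change over the root of F. The procedure was tested on simulated data with the same spread in both groups. The groups here differ in spread, which that test does not cover. Alternatives were DESeq2 1.42.0, its size factors, library totals, no filter, a replicate block, all 12 libraries in the fit, regions within 1 kb of a start and each library left out. TMM within 6 libraries, chromosomes 3 and 5, recovered reads and tests of single regions were added after seeing the data.

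The members and lists were chosen with earlier results of these data known. Named are the genes past the threshold and the 2 with the smallest p per class, and regions or genes beyond these were named after their values were seen. The reference gene table (TAIR10.1) was used for names only. Promoter and protein sequences are not analysed here.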

Additional observations from a re-analysis of the deposited data

Results flagged for a closer look

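For 3 histone genes, every library of one time lay above and every library of another below the uncut libraries, and this contrast was not tested beyond the direct comparison of the times. AT5G02570, an H2B gene, stood at 0.741 times its uncut mean at 2.5 h and 1.41 times at 14 h; 14 h against 2.5 h gave a log2 fold change of 0.93 ± 0.51 with an edgeR adjusted p of 0.988. AT5G10980, an H3.3 gene, stood at 1.35 times at 2.5 h and 0.613 times at 16 h, and AT5G65360, an H3.1 gene, at 0.65 times and 1.44 times; the direct comparisons had an adjusted p of 1.00 each.

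Outside the regions shared by all libraries, 50 of the 61 histone regions found in the 14 h set and in neither the uncut nor the 2.5 h set lay above the uncut libraries in all 3 libraries at 14 h, or 82.0%, beside 83.4% of all 35145 such regions. Choosing regions found at 14 h alone favours higher values there, so the count is a description.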

How the results depend on the processing

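Counts of genes higher and lower, of the 46 with unplaced genes included, are given in that order. DESeq2 gave 3 and 0 at 2.5 h, where it called 3.62% of all genes higher and 4.53% lower. For 14 h it gave 8 and 1 (6.93% and 10.9% of all genes), for 16 h 8 and 5 (8.72% and 10.2%). Library totals gave 8 and 1 at 14 h (6.35% and 6.03%) and 2 and 1 at 16 h (4.69% and 5.16%). All 12 libraries in the fit gave 0 and 0 at 14 h (0.0178% and 1.63% of all genes) and at 16 h (0.0249% and 0.77%). Regions within 1 kb of a start gave 0 and 0 at 14 h (1.1% and 4.02%). Genes of chromosomes 3 and 5 alone gave 2 and 0 at 14 h (2.43% and 3.58% of all genes there). Their median was 0.37 above that of all genes (0.25 before). At 16 h they gave 0 and 0 (1.19% and 1.73%), and 25 of the 46 genes lie on these chromosomes. Recovered reads over all 14 h regions gave 15 and 2 of 48 (16.3% and 15.2% of all genes), with a median 0.37 above. These sums include regions found at 14 h alone, a choice that favours higher values there, so the higher calls support nothing. H2AXA did not pass in them (0.56, adjusted p = 0.0625). Leaving out 1 library in turn gave 0 to 2 higher at 2.5 h, 0 to 10 higher and 0 to 2 lower at 14 h, and 0 to 5 higher and 0 to 4 lower at 16 h. The median of histone genes minus that of all genes then ranged from 0.13 to 0.32 at 2.5 h, 0.18 to 0.41 at 14 h, 0.11 to 0.34 at 16 h and -0.12 to 0.22 at 14 h against 2.5 h. The causes were not tested.

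Equal replicate numbers did not pair the libraries: correlations of same-numbered libraries lay between -0.056 and 0.011. With the replicate number as a block, 2 genes were higher and 1 lower at 14 h, where 1.57% and 7.38% of all genes were. The counts at 16 h were 0 and 0, where 0.756% and 4.83% of all genes were called.

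Over 1585 values of named genes under alternatives, 1464 kept sign and side of the threshold. Most named genes had not passed, so keeping their side was likely from the start. That total therefore does not measure how stable the calls were. Genes that had passed missed the threshold in 55 values. In 31 values the sign changed, each without passing. Under the block these were HTA13 (-0.032) and HTA6 (-0.63) at 2.5 h, and HTA6 at 14 h against 2.5 h (0.81) and 16 h against 14 h (-0.015). With recovered reads they were AT5G10390 (0.17), HTA11 (0.45) and HTA7 (-0.010) at 14 h. Within 1 kb of a start they were HIS1-3 (-0.36) and HTA8 (0.014) at 14 h against 2.5 h, AT1G07820 (0.27), HIS1-3 (-0.79) and HTA8 (0.49) at 16 h against 2.5 h, and RAT5 (0.31) at 16 h against 14 h. With 1 library left out, the range crossed 0 at 2.5 h for H2AXA (-0.47 to 0.24), HTA12 (-0.031 to 0.64), HTA13 (-0.68 to 0.64), HTA2 (-2.23 to 0.10) and HTA6 (-0.69 to 0.91). It did so at 14 h against 2.5 h for HTA12 (-0.058 to 0.67) and HTA6 (-0.72 to 0.83), at 16 h against 2.5 h for AT1G07820 (-0.97 to 0.21), HIS1-3 (-0.072 to 0.48), HTA12 (-0.016 to 0.64) and HTA6 (-0.74 to 1.07), and at 16 h against 14 h for H2AXA (-0.40 to 0.64), HTA6 (-0.64 to 0.77) and HTA7 (-0.13 to 0.21).

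Libraries of 2.5 h and 16 h held 1.44 to 4.78 M reads, so a gene at a few CPM rests on few counts there, and a p above the threshold does not show that levels were equal. The spread between replicates was larger at 2.5 h (median coefficient of variation 55.8%) than in the shallower 16 h libraries (29.6%).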
